A study of Mus musculus with 6 samples.

Results

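The transcripts of Nrf2, its inhibitor, and 8 antioxidant enzyme genes were measured by RNA-Seq in muscle stem cells (MuSCs) sorted from injured muscle. The genes were chosen by symbol and not by any measured value. All 10 symbols (Nfe2l2, Keap1, Hmox1, Nqo1, Gclc, Gclm, Txnrd1, Srxn1, Sod1, and Sod2) were found, each in a single row, among the 49671 genes of the files. Libraries came from 6 female C57BL/6 mice aged 4 to 6 months, of which 3 received resolvin D1 (RvD1, a proresolving lipid mediator made from docosahexaenoic acid) and 3 received vehicle. Every mouse was injured in both tibialis anterior (TA) muscles with 50 μL of 1.2% BaCl2, a salt that kills myofibers but spares stem cells, and cells were collected at day 3. RvD1 was injected IP at 100 ng per day, and control mice received the 0.1% ethanol carrier. The cells of both TA muscles of a mouse were pooled into 1 library, and per the labels they were sorted as positive for CXCR4 and β1-integrin and negative for Ter119, CD31, CD45, Sca-1, and CD11b. Uninjured MuSCs were not analysed here, so the levels below describe the injured state in both groups.

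Nrf2, encoded by Nfe2l2, is a transcription factor that cells hold at a low level until they meet oxidants or electrophiles. Keap1 binds Nrf2 in the cytoplasm and delivers it to a ubiquitin ligase, and oxidation of cysteines in Keap1 releases this brake. Nrf2 then pairs with small Maf proteins on antioxidant response elements and raises transcription of enzymes that make glutathione, reduce thioredoxin, and degrade heme. Its activity is set mainly by protein turnover, which RNA does not show. In injured muscle, heme from myoglobin and hemoglobin and the oxidants of phagocytes are known sources of such stress.

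The antioxidant response element is the sequence to which Nrf2 binds, and promoter windows were searched for its core, TGACNNNGC, on both strands. Windows covered 250 bases before to 50 bases after a RefSeq start on GRCm38.p6. The table held 10 windows for 8 of the 10 genes, 3 of them for Txnrd1, and none for Hmox1 or Gclc. The core was present in 5 of the 10 windows, and in 12.4% of all 32851 windows of the same length. The matches are shown 5′ to 3′ in the direction of the gene with 9 flanking bases on each side. The capitals mark the core, which reads as its reverse complement where the match was on the opposite strand.
Nfe2l2, chr2:75704886-75704912 (gene on the minus strand, core on the same strand): cagcccaccTGACTCCGCcatgccccg
Gclm, chr3:122245414-122245440 (plus strand, opposite): ctcccgggcGCACCGTCAactctcacg
Txnrd1, chr10:82859105-82859131 (plus strand, opposite): tggatttttGCTTTGTCAttctgacac
Srxn1, chr2:152105543-152105569 (plus strand, opposite): cagtgggcaGCTAGGTCAgagtgagac
Sod1, chr16:90220697-90220723 (plus strand, opposite): ccaaggtggGCGTGGTCAgactcaggc

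The core began 240, 134, 92, and 56 bases before the RefSeq start of the window in Nfe2l2, Gclm, Txnrd1, and Sod1, and 28 bases after it in Srxn1. The Txnrd1 window with the match (82858956 to 82859255) lay inside the annotated gene (82833951 to 82897712), and its other windows had no match. The related AP-1 site TGANTCA, which is shared by Jun and Fos proteins and can overlap an antioxidant response element, was found only in the Srxn1 window among those of the 8 genes, at 2 positions, and in 7.81% of all windows. Both sites are shown with the match in capitals.
Srxn1, chr2:152105413-152105437: cggagggccTGAGTCAccacgctgt
Srxn1, chr2:152105470-152105494: aattcacccTGAGTCAgcggccggg

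These are matches of letters in a short window, and binding of Nrf2 was not measured.

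Total expected counts were 17962025 to 28149176 in the RvD1 libraries and 16148026 to 18755643 in the vehicle libraries, and 3 counts corresponded to between 0.107 and 0.186 CPM, the count relative to library depth. All 10 genes had enough counts to be tested, with means from 117 counts for Nqo1 to 8620 for Txnrd1. The sorted cells carried transcripts of the genes listed as MuSC markers, at very different levels. In TPM, which are scaled for transcript length as well as depth, Myod1 was at 363 ± 117 after RvD1 and 348 ± 25.7 after vehicle (SD, n = 3 each), and Itgb1 was at 486 ± 38.1 TPM and 454 ± 13.1 TPM. Of the 12 MuSC markers, Pax7 had the lowest mean over the 6 libraries (5.41 TPM) and Myog, a myogenic regulatory factor, the highest (977 TPM). Myog was at 972, 870, and 1378 TPM in RvD1 replicates 1, 2, and 3 and 851, 974, and 818 TPM with vehicle. RvD1 replicate 3 had both the highest Myog and the highest sum of the markers. The summed level of the 12 MuSC markers ranged from 4096 to 4942 TPM with RvD1 and from 3854 to 4217 TPM with vehicle. Against this, 16 macrophage markers summed to between 50.8 and 77.2 TPM with RvD1 and between 68.7 and 114 TPM with vehicle. A lower level in a sorted population can reflect fewer cells of a type or less RNA per cell, and bulk libraries cannot tell these apart.

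On the length-scaled TPM level, the 10 genes spanned a wide range. Txnrd1 was highest at a mean of 217 TPM over the 6 libraries, followed by Sod2 (194 TPM), Sod1 (138 TPM), Hmox1 (123 TPM), Nfe2l2 (109 TPM), Gclm (66.5 TPM), Gclc (43.7 TPM), Keap1 (24.2 TPM), Srxn1 (21.1 TPM), and Nqo1 (6.42 TPM). Most neighbors in this order were separated in every library. The ranges overlapped for Sod1 and Hmox1 (Sod1 higher in 3 of 6 libraries), for Hmox1 and Nfe2l2 (Hmox1 higher in 5 of 6), and for Keap1 and Srxn1 (Keap1 higher in 5 of 6).

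**Figure D1:**
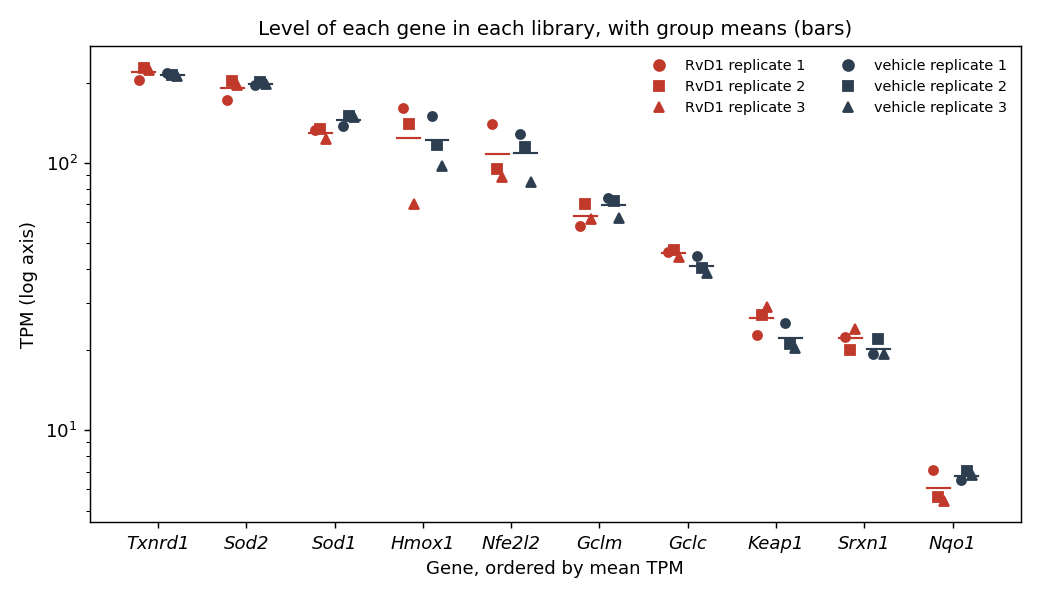
TPM of each gene (log axis) in the 3 RvD1 and 3 vehicle libraries, with bars at the group means. Txnrd1 was highest and Nqo1 lowest in every library, and the points of the 2 groups overlapped for every gene except Sod1.

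None of the 10 genes passed the test for a difference between RvD1 and vehicle. The number with a Benjamini-Hochberg adjusted p under 0.05 in edgeR's quasi-likelihood test was 0 of 10, as for 0% of the 14494 genes tested, and 0 of 10 had an unadjusted p under 0.05, against 3.47% of all genes. DESeq2 also gave 0 of 10 by either rule. The estimates were 3 above and 7 below 0, where 53.5% of all genes were above 0, with a median log2 fold change of −0.08, beside 0.01 over all genes tested. The fold changes lay between 0.847 for Nqo1 and 1.06 for Gclc. The 95% intervals reached no further than 0.611-fold at the lower end and 1.47-fold at the upper end, both for Hmox1, and for Gclc, Gclm, Txnrd1, Srxn1, Sod1, and Sod2 they lay within 0.755-fold and 1.23-fold.

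**Figure D2:**
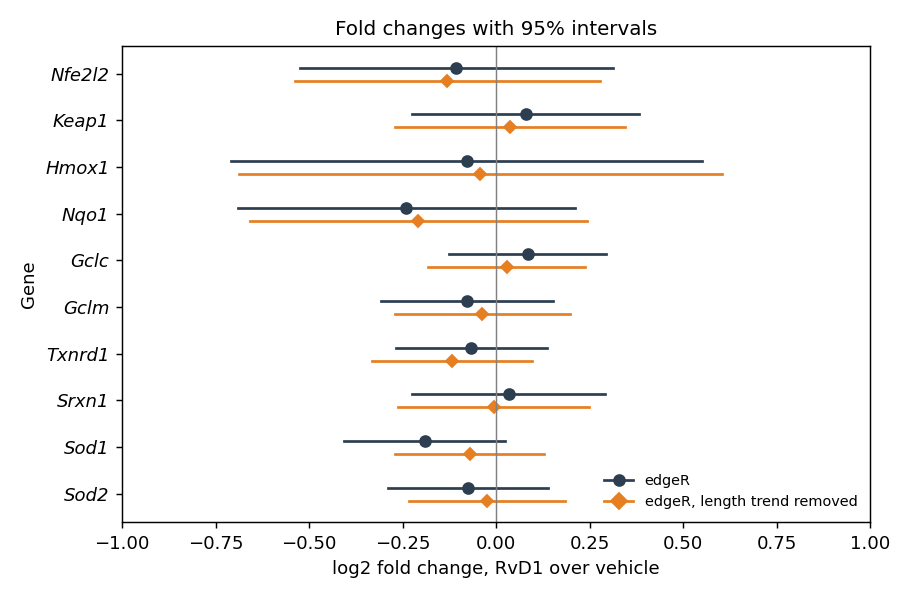
Log2 fold change of each gene, RvD1 over vehicle, with 95% intervals, from edgeR (circles) and from edgeR after removal of a trend on transcript length (diamonds). Every interval includes 0, and those of Hmox1, Nqo1, and Nfe2l2 are the widest.

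The level of Nfe2l2, as CPM scaled by edgeR's TMM factors, was 196, 142, and 126 CPM in RvD1 replicates 1, 2, and 3, beside 189, 178, and 132 CPM in the vehicle replicates of the same numbers. The groups overlapped, and in both groups replicate 1 was highest and replicate 3 lowest. The log2 fold change was −0.11 ± 0.18 (SE) at an edgeR adjusted p of 0.971. Leaving out RvD1 replicate 1 gave −0.31, and leaving out RvD1 replicate 3 gave 0.02. The former had an unadjusted p of 0.0498 from edgeR (adjusted p = 0.967). Nfe2l2 (ENSMUSG00000015839) lies on chromosome 2 of GRCm38, 75675513 to 75704641.

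Keap1 (ENSMUSG00000003308, chromosome 9, 21229730 to 21239361), the inhibitor, was at 36.7, 46.9, and 50.4 CPM with RvD1 and 44.8, 41.8, and 40.4 CPM with vehicle. The RvD1 libraries included both the lowest and the highest value, with a log2 fold change of 0.08 ± 0.13 (SE) at an edgeR adjusted p of 0.971 that turned to −0.02 without RvD1 replicate 3. The ratio of Nfe2l2 to Keap1 in TPM was 6.15 in RvD1 replicate 1, beside 3.50 and 3.07 in the other RvD1 libraries and 4.18 to 5.48 with vehicle.

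Hmox1 (ENSMUSG00000005413, chromosome 8, 75093621 to 75100589) encodes heme oxygenase-1, which opens the heme ring and releases iron, carbon monoxide, and biliverdin. It was the most variable of the 10 genes, at 136, 128, and 59.2 CPM with RvD1 and 136, 112, and 94.3 CPM with vehicle. RvD1 replicate 3 stood below the other 5 libraries, and the highest library exceeded the lowest 2.30-fold. The log2 fold change was −0.08 ± 0.28 (SE) at an edgeR adjusted p of 0.987. It was 0.21 without RvD1 replicate 3, 0.06 without vehicle replicate 1, and −0.28 without RvD1 replicate 1, so its direction rested on single libraries.

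Like Nfe2l2, Hmox1 was highest in replicate 1 and lowest in replicate 3 of both groups. Of the 12 MuSC markers, 4 had this order in CPM in both groups (Pax7, Myf5, Cxcr4, and Vcam1). The opposite order was found for 1 (Myod1), and 7 had neither. How many of all genes share the order of Hmox1 was not counted, and equal replicate numbers stand for different mice. Myf5, a transcription factor of early myoblasts, was at 220, 159, and 101 TPM in RvD1 replicates 1, 2, and 3 and at 160, 137, and 127 TPM with vehicle. Cxcr4 was at 29.0, 21.2, and 11.7 TPM and at 29.8, 23.4, and 18.1 TPM. Myod1, which commits cells to myogenesis, was at 239, 382, and 470 TPM with RvD1 and 325, 343, and 376 TPM with vehicle. The part of the myogenic state in the spread of Nfe2l2 and Hmox1 was not tested.

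Macrophages also express Hmox1. Their 16 markers summed to 77.2, 50.8, and 50.9 TPM in RvD1 replicates 1, 2, and 3 and to 98.8, 68.7, and 114 TPM with vehicle. Lyz2 alone gave 34.3, 18.4, and 17.6 TPM of these sums with RvD1 and 49.0, 27.6, and 61.1 TPM with vehicle. Of the 16 markers, 1 (Cd163) had the order of Hmox1 in CPM in both groups, 1 (Laptm5) had the opposite order, and 14 had neither. The share of all genes with that order was not counted. Adgre1 (F4/80) was at 0.75, 0.82, and 0.22 TPM with RvD1 and 1.17, 0.70, and 1.48 TPM with vehicle, and Cd68 was at 10.6, 7.20, and 4.87 TPM and at 11.03, 7.24, and 7.46 TPM. Both were lowest in RvD1 replicate 3, as was Hmox1, and so were Lyz2, C1qc, and Cd163 in TPM. Other markers differed, and Ptprc, Itgam, Tyrobp, and Laptm5 were highest of the RvD1 libraries in replicate 3 in TPM. Ptprc (CD45) was at or under 1.13 TPM in every library, and Itgam (CD11b) at or under 0.80 TPM. Transcripts of 6 erythroid genes, which follow hemoglobin-bearing cells, summed to 11.4, 95.7, and 26.3 TPM with RvD1 and 32.0, 79.3, and 60.8 TPM with vehicle. The part of macrophages and of erythroid cells in the level of Hmox1 was not tested.

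Nqo1 (ENSMUSG00000003849, chromosome 8, 107388225 to 107403206), which encodes a quinone reductase widely used as a readout of Nrf2 activity, was the lowest of the 10 genes. It had 87 to 146 counts per library and was at 6.20, 5.21, and 4.83 CPM with RvD1 and 5.95, 6.73, and 6.52 CPM with vehicle. RvD1 replicates 2 and 3 lay below the vehicle libraries, and RvD1 replicate 1 lay within them. The log2 fold change of −0.24 ± 0.20 (SE) at an edgeR adjusted p of 0.971 was the furthest from 0 of the 10 genes, and it stayed below 0 when any library was left out (−0.35 to −0.17).

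**Figure D3:**
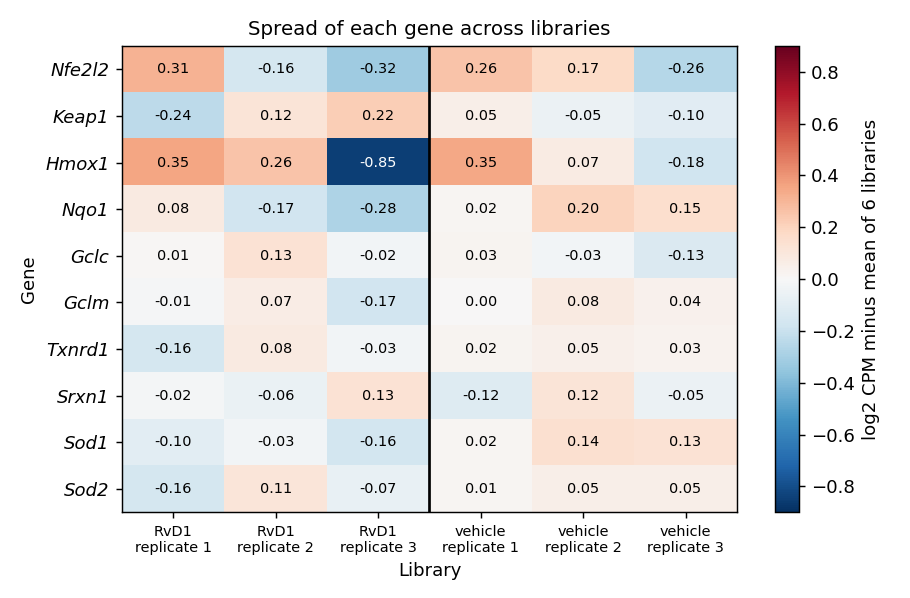
Log2 CPM of each gene in each library minus its mean over the 6 libraries. Nfe2l2 and Hmox1 show the widest spread, with RvD1 replicate 3 lowest for Hmox1 (−0.85), whereas Gclc, Gclm, Txnrd1, Srxn1, Sod1, and Sod2 lie between −0.17 and 0.14.

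The 2 subunits of glutamate-cysteine ligase, the rate-limiting enzyme of glutathione synthesis, were among the steadiest genes. Gclc (ENSMUSG00000032350, chromosome 9, 77754535 to 77794485), the catalytic subunit, was at 90.2, 98.1, and 88.1 CPM with RvD1 and 91.2, 87.8, and 81.9 CPM with vehicle, which gave a log2 fold change of 0.08 (standard error 0.09). Gclm (ENSMUSG00000028124, chromosome 3, 122245557 to 122270732), the modifier subunit that lowers the feedback of glutathione on the enzyme, was at 55.4, 58.5, and 49.6 CPM with RvD1 and 56.0, 59.3, and 57.4 CPM with vehicle, which gave a log2 fold change of −0.08 (standard error 0.10). The groups overlapped for both genes, and in edgeR the adjusted p was 0.971 for both.

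The ratio of Gclm to Gclc separated the groups although neither subunit did. In CPM it was 0.614, 0.597, and 0.563 with RvD1 and 0.614, 0.675, and 0.701 with vehicle. RvD1 replicate 1 and vehicle replicate 1 differed only in the fourth digit (0.61413 and 0.61447). In TPM the ratio was 1.25, 1.48, and 1.39 with RvD1 and 1.65, 1.78, and 1.61 with vehicle, a clearer gap. The ratio was chosen with these values in view and was not tested. Groups were apart for 9.62% of single genes, and the share among ratios of genes was not counted. In TPM, the groups overlapped for the ratios of Nfe2l2 to Keap1, Sod2 to Sod1, Txnrd1 to Srxn1, and Hmox1 to Nqo1. The TPM of Gclm depends on which transcripts the authors' quantification assigned, because the length by which the deposited FPKM divide its counts ran from 1226 to 1623 bases between libraries. Among 10453 genes that averaged 100 counts or more, 10.6% varied as much in this length, and the median gene varied 1.08-fold.

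Txnrd1 and Srxn1 act on the thioredoxin system. Txnrd1 (ENSMUSG00000020250, chromosome 10, 82833951 to 82897712), a selenoprotein that reduces cytosolic thioredoxin with NADPH, was at 386, 454, and 422 CPM with RvD1 and 437, 444, and 440 CPM with vehicle. The vehicle libraries fell within the range of the RvD1 libraries, and the log2 fold change was −0.07 ± 0.09 (SE) at an edgeR adjusted p of 0.971. On the log2(TPM + 1) scale the estimate was 0.03. Srxn1 (ENSMUSG00000032802, chromosome 2, 152105516 to 152111376), which encodes sulfiredoxin and restores overoxidized peroxiredoxins, was at 35.2, 34.1, and 38.9 CPM with RvD1 and 32.8, 38.5, and 34.3 CPM with vehicle. Its log2 fold change of 0.03 ± 0.11 (SE) at an edgeR adjusted p of 0.987 was −0.02 without RvD1 replicate 3 and −0.016 without vehicle replicate 1.

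The superoxide dismutases turn superoxide into hydrogen peroxide, Sod1 with copper and zinc in the cytosol and Sod2 with manganese in mitochondria. Sod1 (ENSMUSG00000022982, chromosome 16, 90220754 to 90226329) was at 56.2, 59.0, and 53.7 CPM with RvD1 and 60.7, 66.3, and 65.7 CPM with vehicle. It was the only gene of the 10 whose groups did not overlap in CPM, with all RvD1 libraries lower. Over all genes tested, groups were apart for 9.62%, and RvD1 was lower for 4.83%, so 1 of 10 is close to the background. The log2 fold change was −0.19 ± 0.09 (SE) at an edgeR unadjusted p of 0.0758 and an adjusted p of 0.971, and it ranged from −0.23 to −0.16 when 1 library was left out. In TPM the groups were apart as well, at 130 ± 6.34 TPM after RvD1 and 145 ± 6.86 TPM after vehicle (SD, n = 3 each).

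Sod2 (ENSMUSG00000006818, chromosome 17, 13006846 to 13040063) was at 134, 162, and 143 CPM with RvD1 and 152, 156, and 156 CPM with vehicle. Its RvD1 libraries lay on both sides of the vehicle libraries, with a log2 fold change of −0.08 ± 0.09 (SE) at an edgeR adjusted p of 0.971. Sod2 exceeded Sod1 in every library, by a ratio of 1.30 to 1.60 in TPM. Expected counts of Keap1, Gclm, Sod1, and Sod2 were not whole numbers in any of the 6 libraries, as RSEM gives where it divides reads that match more than 1 gene. On the annotation, Sod1 overlaps Scaf4 on the other strand and Keap1 overlaps Gm16754, while Gclm shares its strand with Gm6061, Txnrd1 with Eid3, and Nfe2l2 with Gm24996. The study's methods name SmartSeq cDNA and Nextera XT libraries, call the data single-stranded, and give no strand setting for the counting. Reads in these overlaps, also those of genes on opposite strands, cannot be assigned with certainty.

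Fold changes in these libraries moved with transcript length, which bears on Sod1, the shortest of the 10 genes. Of 2040 tested genes whose implied length was under 1000 bases, 71.4% had an estimate below 0 (median log2 fold change −0.12) and 14.6% had all RvD1 libraries below all vehicle libraries. Of 4731 genes longer than 3000 bases, 29.1% had an estimate below 0 (median 0.08) and 1.23% were apart and lower. For the short genes, the median deviation from the mean of all libraries was −0.09, 0.004, and −0.08 log2 CPM in the 3 RvD1 libraries, beside 0.01, 0.10, and 0.11 in the 3 vehicle libraries.

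Among the 1000 genes nearest to Sod1 in length (562 to 888 bases, with Sod1 at 707), the median log2 fold change was −0.12 and 15.6% were apart and lower. After a smooth trend on length was removed from each library, an alternative added with the data in view, the log2 fold change of Sod1 was −0.07 ± 0.09 (SE) at an edgeR unadjusted p of 0.44. Nqo1 moved from −0.24 to −0.21 and Nfe2l2 from −0.11 to −0.13, and Srxn1 changed sign to −0.0061. Gclm, at 1370 bases, moved from −0.08 to −0.04, and Gclc, at 3312 bases, from 0.08 to 0.03. The part of length in the ratio of Gclm to Gclc was not tested. In this fit 0 of the 10 genes had an unadjusted p under 0.05, against 2.42% of 14417 genes. The cause of the length trend was not tested.

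**Figure D4:**
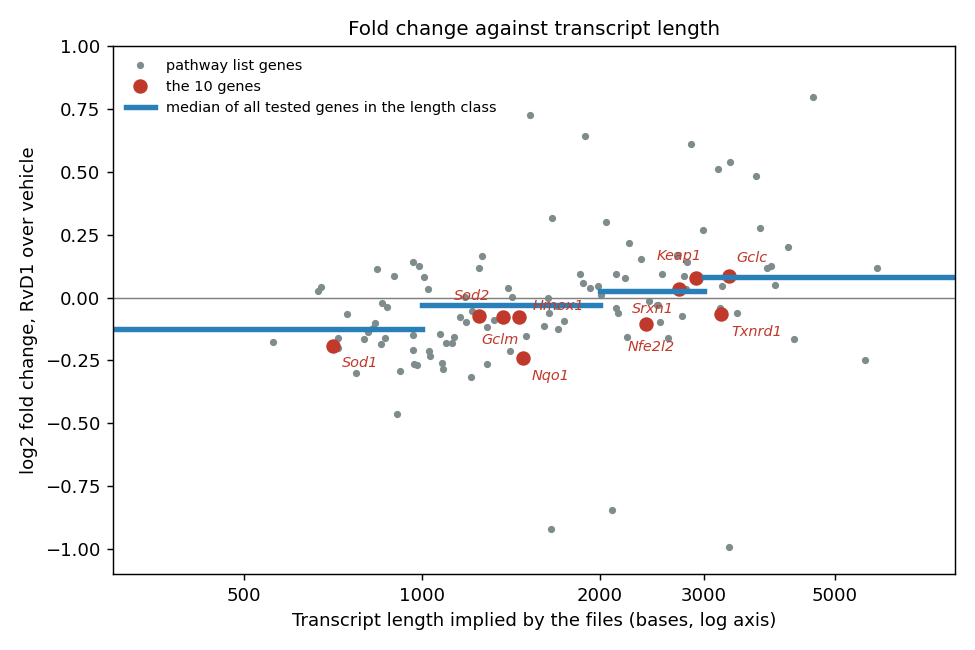
Log2 fold change, RvD1 over vehicle, against the transcript length implied by the files (log axis), for the 10 genes, for the other pathway genes, and as the median of all tested genes in 4 length classes. The medians rise from −0.12 at lengths under 1000 bases to 0.08 above 3000 bases, and Sod1 (−0.19) lies at the short end.

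The wider antioxidant pathway was described with 111 further genes in 8 lists, all present in the files, of which 102 had enough counts to be tested. In edgeR's quasi-likelihood test 0 of the 102 passed the adjusted threshold. An unadjusted p under 0.05 was found for 1 gene that was higher with RvD1 and for 9 that were lower, against 1.83% and 1.64% of all genes. The groups were apart for 2 genes with RvD1 higher and 14 with RvD1 lower, against 4.80% and 4.83% of all genes. The median log2 fold change was −0.04. After the length trend was removed, 0 genes were higher and 2 lower at an unadjusted p under 0.05 (1.48% and 0.936% of all genes), and 25 of the 102 genes had lengths under 1000 bases.

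The list of thioredoxins, peroxiredoxins, sestrins, and methionine sulfoxide reductases, which reduce peroxides and oxidized proteins, held 5 of the 9 genes that were lower at an unadjusted p under 0.05 (Txn1, Prdx1, Prdx2, Prdx4, and Msra). Of its 18 genes tested, 4 had estimates above 0 and 14 below, with a median of −0.10. Prdx4, the peroxiredoxin of the endoplasmic reticulum, was at 113, 125, and 116 CPM with RvD1 and 136, 151, and 148 CPM with vehicle, which gave a log2 fold change of −0.29 ± 0.09 (SE) at an edgeR adjusted p of 0.971. Msra, which repairs oxidized methionine, was at 28.4, 26.9, and 27.96 CPM with RvD1 and 35.5, 35.1, and 33.1 CPM with vehicle, which gave a log2 fold change of −0.32. The groups were apart for both. They were the 2 genes of the 8 lists with an unadjusted p under 0.05 after the length trend was removed, when their estimates were −0.20 and −0.26.

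Prdx1, the most abundant gene of this list, was at 2166 ± 105 TPM after RvD1 and 2401 ± 93.3 TPM after vehicle (SD, n = 3 each), with a log2 fold change of −0.23 that was −0.16 in the length fit. Prdx2 had a log2 fold change of −0.21 (−0.14 in the length fit) and Txn1, thioredoxin itself, of −0.27 (−0.18 in the length fit). Txnip, which binds and inhibits thioredoxin, had the largest estimate of the list, 0.64 ± 0.38 (SE) at an edgeR adjusted p of 0.971, with RvD1 replicate 1 at 56.3 CPM, beside 19.4 and 19.7 CPM in the other RvD1 libraries and 18.0 to 23.0 CPM with vehicle.

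Of 25 glutathione genes tested, 11 estimates were above 0 and 14 below (median −0.09), and 3 had an unadjusted p under 0.05 from edgeR, all lower. Gpx1, the cytosolic glutathione peroxidase, was at 273, 327, and 307 CPM with RvD1 and 370, 390, and 356 CPM with vehicle, which gave a log2 fold change of −0.30 (standard error 0.09). Gpx4, which reduces lipid hydroperoxides in membranes, was at 153 ± 2.63 CPM and 175 ± 6.36 CPM (SD, n = 3), which gave a log2 fold change of −0.20. Gsto1 had a log2 fold change of −0.26. In edgeR the adjusted p was 0.971 for all 3, and in the length fit 0 of the 25 genes had an unadjusted p under 0.05. Their implied lengths were 773, 721, and 969 bases. Gstp1 had the highest mean TPM of the 25 glutathione genes, at 851 ± 45.9 TPM in RvD1-treated mice and 926 ± 50.3 TPM in vehicle mice. Gpx3 was at 1361, 268, and 278 TPM in RvD1 replicates 1, 2, and 3 and at 464, 351, and 263 TPM with vehicle. Its log2 fold change was 0.73 ± 0.56 (SE) at an edgeR adjusted p of 0.971. Slc7a11, the cystine importer and a known Nrf2 target, had a mean of only 20.7 counts and was at 0.593, 1.66, and 1.51 CPM with RvD1 and 0.936, 0.463, and 0.766 CPM with vehicle, which gave a log2 fold change of 0.80 ± 0.50 (SE) at an edgeR adjusted p of 0.971.

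The remaining lists held few genes with small p values. Of 13 regulators tested, 10 estimates were above 0 and 3 below, with a median of 0.05, and none had an unadjusted p under 0.05 in edgeR's test. Sqstm1 (p62), which draws Keap1 into autophagosomes, was at 920 ± 140 CPM and 897 ± 104 CPM (SD, n = 3), and Palb2 had the largest estimate, 0.30 (standard error 0.24). Among 10 heme and iron genes, Ftl1, the ferritin light chain, was at 3495 ± 128 TPM in RvD1-treated mice and 3771 ± 58.7 TPM in vehicle mice (SD, n = 3) with a log2 fold change of −0.14. Slc40a1, the iron exporter ferroportin, was at 105, 23.3, and 23.3 CPM with RvD1 and 50.4, 32.6, and 23.5 CPM with vehicle.

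Of 8 genes that supply NADPH, 2 estimates were above 0 and 6 below. Taldo1, of the pentose phosphate pathway, had a log2 fold change of −0.26 ± 0.11 (SE) at an edgeR unadjusted p of 0.0427 and an adjusted p of 0.971. Idh2, the most abundant of them, had one of −0.06. Among 18 detoxification and export genes, Abcc5, an exporter of cyclic nucleotides and conjugates, was the single gene of the 8 lists that was higher at an unadjusted p under 0.05, at 60.4, 53.1, and 51.5 CPM with RvD1 and 43.5, 46.6, and 46.8 CPM with vehicle (log2 fold change 0.27 ± 0.10, SE, at an edgeR adjusted p of 0.971). Akr1b3 and Ephx1 had log2 fold changes of −0.16 and 0.32. Of 5 superoxide and peroxide genes, Park7 had a log2 fold change of −0.12. Sod3, the secreted dismutase, was at 30.7, 7.78, and 15.03 CPM with RvD1 and 15.1, 12.2, and 11.02 CPM with vehicle.

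NADPH oxidases make the superoxide that dismutases remove, and 5 of their 10 genes had enough counts to be tested. Cybb, the catalytic subunit of phagocytes, had a mean of 12.7 counts and was at 0.498, 0.178, and 0.721 CPM with RvD1 and 0.743, 0.805, and 1.14 CPM with vehicle, which gave a log2 fold change of −0.99 ± 0.55 (SE) at an edgeR adjusted p of 0.971. Its partner Cyba, which other cells also express, was at 12.99, 8.06, and 9.04 CPM with RvD1 and 9.85, 9.94, and 9.77 CPM with vehicle. Nox4, with a mean of 110 counts, was at 9.10, 4.78, and 5.21 CPM with RvD1 and 3.03, 5.58, and 4.51 CPM with vehicle. Its log2 fold change was 0.54 ± 0.32 (SE) at an edgeR adjusted p of 0.971. Of the 5 genes tested, 2 estimates were above 0 and 3 below. The groups were apart for Cybb in CPM but overlapped in TPM. An unadjusted p under 0.05 from edgeR was found for 4 of the 16 macrophage markers, all lower, against 1.64% of all genes that were lower. Where 53.5% of all genes had an estimate above 0, 14 of these 16 markers had one below 0, like Cybb. Their mean level was 0.91 ± 0.26 log2 CPM with RvD1 and 1.43 ± 0.28 log2 CPM with vehicle (SD, n = 3), so that RvD1 differed by −0.52 with a two-sided p of 0.2 in an exact permutation test of 3 against 3 mice, which cannot give less than 0.1. By library, the marker level was 1.21, 0.77, and 0.75 log2 CPM in RvD1 replicates 1, 2, and 3. Cybb was highest of these libraries in replicate 3. The part of remaining macrophages in the value of Cybb was not tested.

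RvD1 replicate 1 stood apart for several genes. In that library, Txnip, Sod3, Slc40a1, and Gpx3 were at their highest, and 6 markers of fibro-adipogenic cells summed to 568 TPM. The other RvD1 libraries gave 245 and 360 TPM, and the vehicle libraries 275 to 325 TPM. Dcn alone gave 450 TPM in replicate 1, beside 182 and 284 TPM in the other RvD1 libraries and 196 to 225 TPM with vehicle. Of the 6, Pdgfra and Ly6a were not at their highest in RvD1 replicate 1. Pdgfra was at 3.48 TPM there and at 3.55 TPM in RvD1 replicate 3. In CPM, RvD1 replicate 1 was also the library with the highest Nfe2l2 and the lowest Keap1, while in TPM Keap1 was lower in vehicle replicates 2 and 3. Ly6a (Sca-1), which the sort selected against, was at 21.7 ± 4.14 TPM in RvD1-treated mice and 32.1 ± 6.89 TPM in vehicle mice (SD, n = 3). It was the only 1 of the 6 fibro-adipogenic markers with a lower mean CPM after RvD1. The part of such cells in these values was not tested.

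Finally, the genes whose pattern over the 6 libraries was closest to that of Nfe2l2 or Hmox1 were listed as a description, by Pearson correlation of log2 CPM across all 14493 other tested genes. For Nfe2l2 these were 2610035D17Rik (r = 0.99), Ddrgk1 (r = 0.99), and Cables1 (r = 0.99), and for Hmox1 they were Bcl2l2, Sbno1, and Hivep1 (each r = 0.99). Hmox1 itself ranked 1463rd for Nfe2l2 (r = 0.76), Keap1 ranked 11632nd (r = −0.58), and Nqo1 3227th (r = 0.54), where every gene is read from the same 6 libraries and shares their depth.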

How the data were processed

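RNA-Seq values of 6 libraries, 1 per mouse, were taken from the deposited tables. According to the submitters' notes, STAR 2.5.0a, RSEM, and mm10 were used. The deposited expected counts are RSEM's unscaled estimates per gene. The TPM and FPKM deposited beside them had been divided by transcript length and depth by the authors. The annotation is not given in the sources used here, and 1 stray header line was left out. The 3-count floor covers counting error only, since molecules were not tagged before amplification.

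Expected counts were rounded and tested with edgeR 4.0.16 (TMM, filterByExpr, quasi-likelihood test) in R 4.3.3 over 14494 genes, with Benjamini-Hochberg adjustment over all of them and a threshold of 0.05. Standard errors and 95% intervals came from the fold change and test statistic. Levels between genes were compared in TPM, and log2 CPM used a prior count of 2. Transcript length was the value that relates the deposited counts to FPKM, averaged over libraries, and 77 genes without it were left out of the length fit. Alternatives used DESeq2 1.42.0, limma 3.58.1, and sva 3.50.0, other scaling factors and filters, a replicate block, log2 values of TPM (adding 1 or 0.1) and of FPKM (adding 1), and each library left out. The tests were checked on simulated counts. Positions are from GENCODE M21 on GRCm38, and promoter sequences from RefSeq on GRCm38.p6.

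The 10 genes were chosen by symbol and not by value. Even so, they, the pathway lists, and the markers were chosen with earlier results of these data known. Genes named from each pathway list were that with the highest TPM and that with the largest absolute log2 fold change. Those with an unadjusted p under 0.05 were named too, and Gpx3 and Nox4 were added. The named markers were Itgb1, Cxcr4, Pax7, Myod1, Ptprc, Itgam, Adgre1, and Ly6a, and Pax7 averaged 5.92 ± 2.23 TPM after RvD1 and 4.90 ± 1.50 TPM after vehicle (SD, n = 3). Myf5, Vcam1, Myog, Cd68, Lyz2, Cd163, Laptm5, Tyrobp, C1qc, Dcn, Pdgfra, Gpx3, and Nox4 were chosen after their values were seen. Of the other marker lists, 4 of 6 neutrophil genes had 0 counts in every library, and 5 endothelial genes summed to 3.29 to 10.5 TPM.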

Additional observations from a re-analysis of the deposited data

How the results depend on the processing

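The number of the 10 genes with an adjusted p under 0.05 was 0 under each of the 16 alternatives and the 6 fits without 1 library. The number over all genes was 0 except without a low count filter (12 genes) and with limma-voom after removal of surrogate variables (1727 of 26518 genes, 14 of them in the pathway lists). The study removed surrogate variables but does not name their number or how it was chosen, so a rule of the sva package was used here. That rule gave 1 surrogate variable under 11 of 20 random seeds and 2 under 9, and the value here removed 2. With 1 removed, an alternative added after seeing the data, the number was 0. With 2 removed, Nqo1, Gclc, and Sod1 had unadjusted p of 0.0226, 0.0268, and 0.00928 from limma (adjusted p = 0.125, 0.137, and 0.0803). Without 1 library the number of genes was 0 to 1, the latter without RvD1 replicate 3. Estimates changed sign for Txnrd1 on the TPM scale (0.0279 with 1 added, with or without the filter, and 0.0280 with 0.1 added) and for Srxn1 with the length trend removed (−0.0061). Without 1 library, the log2 fold change ranged from −0.31 to 0.02 for Nfe2l2, from −0.02 to 0.20 for Keap1, from −0.28 to 0.21 for Hmox1, and from −0.02 to 0.10 for Srxn1. Among these, leaving out RvD1 replicate 3 gave 0.018 for Nfe2l2, −0.016 for Keap1, 0.21 for Hmox1, and −0.025 for Srxn1, and leaving out vehicle replicate 1 gave 0.06 for Hmox1 and −0.016 for Srxn1. The cause was not tested. Libraries with the same replicate number come from different mice, and their deviations from the group means correlated at 0.310, −0.00071, and 0.126. With the replicate block, 0 genes passed the adjusted threshold, 896 had an unadjusted p under 0.05, and 0 of the 10 were among them. The macrophage difference was −0.52 with the block. With 3 mice per group, changes within the 95% intervals given above could not be told from 0.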
